A study of Homo sapiens with 16 samples.

Results

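The genes described here are 10 transcription factors and regulators of the immediate early class: EGR1, FOS, JUN, JUNB, IER2, IER3, KLF2, KLF4, KLF6 and KLF10. They were chosen by gene symbol, as the probe sets whose symbols contain one of these names, a rule that uses no measured value, though the genes themselves were picked with earlier results of these data known. Each of the 10 matched 1 probe set that carries no other symbol, out of 18421 genes named on the array. The study exposed H9, a widely used human embryonic stem cell line, to activin A, a ligand of the nodal pathway, and read total RNA depleted of ribosomal RNA on exon arrays. Group 1 is undifferentiated H9 cells (day 0, 4 biological samples on 5 arrays), kept on mouse feeder layers or on Matrigel, with medium conditioned by feeders and basic FGF (8 ng/ml). The others are H9 cells after 1 day (3 samples), 3 days (3 samples) and 5 days (4 samples on 5 arrays) in RPMI with activin A at 100 ng/ml and fetal bovine serum raised in steps of 0%, 0.2% and 2%. All groups come from 1 cell line, and the results describe that line. Activin, base medium, FGF and serum changed together, and their effects cannot be told apart. Neither the day on which serum was raised nor the time between the last medium change and harvest is given in the sources used here.

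Immediate early genes are transcribed within minutes of a signal, without new protein synthesis, and their messenger RNAs are short-lived. Serum and growth factors act on them through the ERK cascade, which activates ternary complex factors bound with serum response factor at CArG boxes. Their products, such as the AP-1 subunits FOS and JUN and the zinc finger factor EGR1, then switch on later genes. KLF factors bind GC-rich and CACCC elements through 3 zinc fingers. KLF4 is known as a reprogramming factor and KLF10 as a gene that TGF-beta induces early.

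Promoters of EGR1, FOS, KLF4 and KLF6 are shown. KLF6 and EGR1 passed the test below at day 5 against day 0, and KLF4 was lowest in all day 3 samples. FOS is the textbook serum-responsive partner of EGR1. The sequences are the 250 bases before the RefSeq start on GRCh38.p14, 5′ to 3′ on the gene's strand, and RefSeq promoters were matched for 8 of the 10 genes. Capitals mark matches on either strand to the CArG box, the AP-1 element TGANTCA, the cyclic AMP element TGACGTCA, the GC box GGGCGG, the EGR element GCGNGGGCG and TATAAA.
EGR1 promoter, chr5:138465229-138465478, plus strand: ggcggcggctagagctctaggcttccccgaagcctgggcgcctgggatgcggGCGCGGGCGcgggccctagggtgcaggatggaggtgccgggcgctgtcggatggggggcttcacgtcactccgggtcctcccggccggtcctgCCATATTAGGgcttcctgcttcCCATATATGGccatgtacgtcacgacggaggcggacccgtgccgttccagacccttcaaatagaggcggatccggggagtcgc
FOS promoter, chr14:75278578-75278827, plus strand: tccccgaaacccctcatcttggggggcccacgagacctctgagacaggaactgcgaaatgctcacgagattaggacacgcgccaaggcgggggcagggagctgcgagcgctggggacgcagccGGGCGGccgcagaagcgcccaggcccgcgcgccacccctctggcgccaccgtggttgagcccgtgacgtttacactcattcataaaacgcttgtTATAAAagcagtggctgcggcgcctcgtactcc
KLF4 promoter, chr9:107489770-107490019, minus strand: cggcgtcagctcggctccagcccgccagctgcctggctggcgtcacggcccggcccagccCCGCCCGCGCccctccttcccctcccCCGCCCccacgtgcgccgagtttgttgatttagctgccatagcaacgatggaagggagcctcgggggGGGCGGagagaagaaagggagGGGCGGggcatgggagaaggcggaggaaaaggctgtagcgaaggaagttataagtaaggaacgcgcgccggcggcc
KLF6 promoter, chr10:3785210-3785459, minus strand: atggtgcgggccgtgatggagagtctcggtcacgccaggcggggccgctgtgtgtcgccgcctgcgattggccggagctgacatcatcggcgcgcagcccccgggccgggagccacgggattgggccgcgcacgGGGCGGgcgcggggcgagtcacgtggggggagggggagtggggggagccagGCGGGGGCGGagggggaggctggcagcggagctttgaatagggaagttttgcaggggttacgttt

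The EGR1 window held 2 CArG boxes, starting 105 and 83 bases before the start. It was the only 1 of the 8 member windows with a match to that box. Sequence outside the windows was not searched. A window without a match, such as that of FOS, therefore does not show that the gene lacks a CArG box. Over the windows at the first listed start of 27305 genes, 1.14% held a CArG box. The GC box GGGCGG was in 6 of the 8 member windows, against 42.3% of all windows. An EGR element was in 4 of the 8 (EGR1, KLF2, KLF4 and KLF6), against 8.25% of all, and in KLF2, KLF4 and KLF6 it overlapped a GC box. TATAAA stood 33 bases before the start of FOS and 31 bases before that of JUNB, against 11.1% of windows. No member window held TGANTCA (6.6% of windows) or TGACGTCA (1.77%). The member windows held 62% to 80% G or C, and the windows of all genes were not matched for this. The shares for the GC box and the EGR element therefore cannot show that these strings are particular to the members. A match is a string of letters in these windows and was not tested as a binding site.

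The 16 arrays had medians of 245.1 to 246.3 intensity units on the authors' scale, and technical arrays of 1 sample were averaged, which left 14 samples. All values below are log2(intensity + 1), and no probe set's level is set against another's, since probes differ in brightness. Across probe sets, day 3 replicate 2 correlated with the other samples of its day at a median of 0.83 and day 5 replicate 2 at 0.86, against 0.90 to 0.96 for the others. The 11 measured markers of streak and endoderm averaged 6.99 in day 3 replicate 2, against 11.11 and 11.34 in the other day 3 samples and 6.603 to 7.732 at day 0. Its 5 measured pluripotency markers averaged 11.89, against 11.16 and 11.29 in its day and 12.43 to 12.80 at day 0. That sample goes against its label for endoderm genes. Results printed below that changed call, or moved by over 1.5 times, without it are given both ways. In bulk RNA, fewer cells of a type and less RNA per cell cannot be told apart.

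KLF6, a zinc finger factor that serum and injury induce in many cells, showed the clearest change of the 10. Its level was 8.41, 8.82, 8.79 and 9.72 in the day 0 samples and 8.69, 8.50 and 9.03 at day 1. It stood at 9.85, 9.06 and 10.28 at day 3 and at 10.42, 10.41, 10.53 and 10.86 at day 5. All 4 day 5 samples lay above every sample of the other days, and days 0 and 1 overlapped. At day 5 KLF6 averaged 10.55 ± 0.21 and at day 0 8.93 ± 0.55 (SD, n = 4 each), so it rose by 1.62 ± 0.32 on the log2 scale (SE), a 3.07-fold difference with an adjusted p of 0.00937 (limma, Benjamini-Hochberg over all probe sets). The rise stayed past the test without any 1 of the 14 samples, at 1.45 to 1.88 and adjusted p values of 0.00264 to 0.0386. The technical arrays of replicate 4 read 10.74 and 10.97 at day 5 and 9.82 and 9.61 at day 0, closer to each other than the days were.

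KLF6 at days 1 and 3 did not pass the test. The difference from day 0 was -0.19 at day 1 (95% interval -0.93 to 0.55) and 0.80 at day 3 (0.06 to 1.54, adjusted p 0.519). Day 3 replicate 2 was the sample that overlapped day 0. Without it the day 3 difference was 1.13 ± 0.33 (adjusted p 0.103), and day 3 against day 1 was 1.32 ± 0.35 (0.0713), against 0.98 ± 0.37 (0.404) with all samples. Day 5 exceeded day 3 by 0.82 ± 0.34 (adjusted p 0.747) with all samples and by 0.49 ± 0.33 (0.57) without day 3 replicate 2, with no overlap of the samples in either case. In the order of the daily means, day 1, day 0, day 3 and day 5, no neighbouring pair differed past the test.

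EGR1, the zinc finger factor that links growth signals to later transcription, moved the other way. It measured 9.08, 8.94, 8.15 and 8.06 at day 0 and 7.63, 6.41 and 7.47 at day 1. At day 3 the values were 8.16, 6.35 and 7.95, and at day 5 they were 6.90, 5.96, 7.23 and 7.05. Every day 1 and day 5 sample lay below every day 0 sample, while day 3 replicate 1 reached into the day 0 range. EGR1 averaged 6.78 ± 0.56 at day 5 and 8.56 ± 0.53 at day 0 (SD, n = 4 each), so it fell by 1.77 ± 0.45 (SE), a 3.42-fold difference with an adjusted p of 0.0372. That call was near the threshold and was lost in 9 of the 14 fits that left out 1 sample. Those were the fits without any 1 of the day 0 or day 5 samples, at adjusted p values of 0.0512 to 0.122, and the fit without day 1 replicate 3, at 0.0516. It was 0.00923 without day 3 replicate 2.

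At day 1 EGR1 differed from day 0 by -1.39 ± 0.49 (adjusted p 0.579, and 0.226 without day 3 replicate 2). At day 3 the difference was -1.07 ± 0.49 with all samples and -0.50 without replicate 2, which was the lowest of that day. Replicate 2 was the lowest EGR1 sample at each of days 1, 3 and 5. Within day 0 the samples formed 2 pairs, replicates 1 and 2 near 9 and replicates 3 and 4 near 8. The labels do not say which cultures were on feeders and which on Matrigel, so whether this pairing goes with the substrate was not tested.

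**Figure D1:**
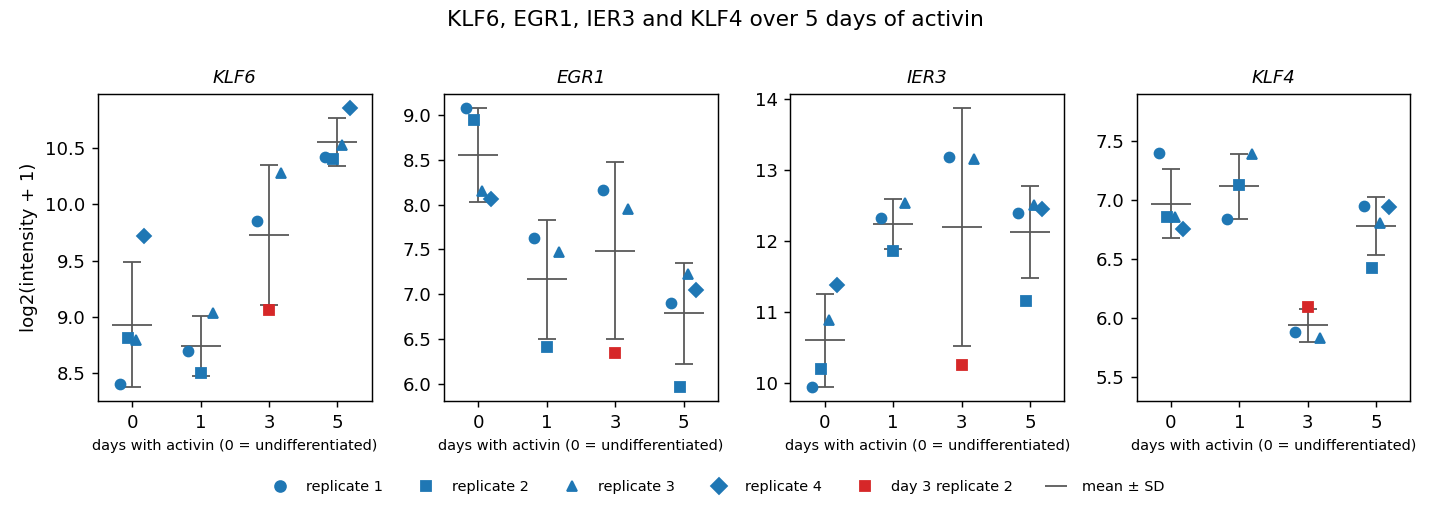
Values of KLF6, EGR1, IER3 and KLF4 in each biological sample, as log2(intensity + 1) on the vertical axes, by days with activin on the horizontal axes. Points are samples (shape gives the replicate number, red is day 3 replicate 2), and bars are the mean ± SD of each day; KLF6 is highest in the 4 day 5 samples and KLF4 lowest in the 3 day 3 samples.

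FOS, the AP-1 subunit that dimerises with JUN proteins, had the same split at day 0 as EGR1. It read 8.41, 7.97, 7.08 and 7.06 at day 0, 8.08, 8.21 and 8.09 at day 1, 7.35, 7.65 and 7.47 at day 3, and 7.25, 7.15, 7.12 and 7.14 at day 5. The treated samples were tight, with an SD of 0.07 at day 1, 0.15 at day 3 and 0.06 at day 5, against 0.67 at day 0. Days 1, 3 and 5 did not overlap one another, in falling order, but day 0 spanned all 3. No difference passed the test. Day 1 was above day 0 by 0.49 (95% interval -0.16 to 1.15), day 3 below day 1 by a log2 difference of -0.64 ± 0.32 (adjusted p 0.637), and day 5 differed from day 0 by -0.47 (-1.07 to 0.14).

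JUN, the central AP-1 subunit, was lowest at day 1, where FOS was highest by mean. Its values were 8.59, 8.84, 9.06 and 9.67 at day 0 and 8.80, 7.90 and 8.61 at day 1. They were 9.75, 9.25 and 9.48 at day 3 and 9.36, 8.41, 9.42 and 10.10 at day 5. The day 3 samples did not reach down to any day 1 sample, a difference of 1.06 ± 0.41 (adjusted p 0.441). Against day 0 JUN differed by -0.61 at day 1 (95% interval -1.44 to 0.23), 0.45 at day 3 (-0.38 to 1.29) and 0.28 at day 5 (-0.49 to 1.05). JUNB, an AP-1 subunit that can oppose JUN, ranged from 7.43 to 8.43 at day 0, 8.01 to 8.17 at day 1, 7.37 to 8.06 at day 3 and 7.43 to 7.96 at day 5. Its samples overlapped on all days in the comparisons with day 0, where the differences were 0.15, -0.27 and -0.31 for days 1, 3 and 5, and -0.46 for day 3 without replicate 2.

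IER3, a regulator of cell survival that NF-kappaB and p53 induce, was higher in nearly all treated samples. It stood at 9.95, 10.20, 10.89 and 11.38 at day 0 and at 12.33, 11.86 and 12.55 at day 1. At day 3 it read 13.18, 10.26 and 13.16, and at day 5 12.40, 11.16, 12.52 and 12.46. Day 3 replicate 2 and day 5 replicate 2 lay within the day 0 range, and the other treated samples above it. With all samples IER3 differed from day 0 by 1.64 ± 0.64 at day 1, 1.60 ± 0.64 at day 3 and 1.53 ± 0.59 at day 5 (adjusted p 0.676, 0.464 and 0.184). Without day 3 replicate 2 it rose by 2.57 ± 0.45 at day 3 (adjusted p 0.00881) and by 1.53 ± 0.37 at day 5 (0.0222), while day 1 stayed at 0.146. The day 5 estimate is the same in both fits, since that sample enters it only through the shared spread.

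IER2, a nuclear regulator also known as an early serum-induced gene, was steady at first. It measured 11.23, 11.15, 10.92 and 11.01 at day 0, 11.30, 10.72 and 11.40 at day 1, 11.19, 10.46 and 10.40 at day 3, and 10.52, 9.20, 10.78 and 10.55 at day 5. All day 5 samples were below all day 0 samples, a difference of -0.82 ± 0.33 that did not pass the test (adjusted p 0.216). Without day 5 replicate 2, the lowest sample, the difference was -0.46.

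KLF4 was low on a single day. The day 0 samples read 7.40, 6.86, 6.86 and 6.75 and the day 1 samples 6.83, 7.13 and 7.38. At day 3 the level was 5.88, 6.09 and 5.83, and at day 5 it was back at 6.95, 6.42, 6.80 and 6.94. The 3 day 3 samples, replicate 2 among them, lay below all 11 others. KLF4 at day 3 differed from day 0 by -1.03 ± 0.24 (adjusted p 0.178) and from day 1 by -1.18 ± 0.26 (0.141), and day 5 exceeded day 3 by 0.84 ± 0.24 (0.35). With day 3 replicate 2 left out KLF4 fell at day 3, with a difference of -1.11 ± 0.26 from day 0 (adjusted p 0.0385) and of -1.26 ± 0.27 from day 1 (0.0324). Replicate 2 was itself low for KLF4. The unadjusted p of KLF4 at day 3 against day 0 was 0.00084 with that sample and 0.00109 without it, so the adjusted p moved with the p-values of the other probe sets.

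KLF2, a factor known from blood vessels and T cells and used with KLF4 in naive stem cell work, ranged from 5.85 to 6.87 at day 0, 5.97 to 7.26 at day 1, 6.31 to 8.24 at day 3 and 6.23 to 7.42 at day 5. The highest value was day 3 replicate 2. The day 3 difference from day 0 was 0.56 (95% interval -0.51 to 1.63) with that sample and -0.08 without it. KLF10, the TGF-beta inducible factor, read 10.13, 9.65, 9.22 and 9.72 at day 0, 9.60, 10.07 and 9.48 at day 1, 9.79, 9.92 and 9.28 at day 3, and 9.70, 9.01, 8.89 and 9.10 at day 5. Days 1 and 3 overlapped day 0 almost fully, with differences of 0.04 (95% interval -0.59 to 0.66) and -0.02 (-0.64 to 0.61), the second being -0.14 without day 3 replicate 2. At day 5 it differed from day 0 by -0.50 (-1.08 to 0.08, adjusted p 0.385).

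**Figure D2:**
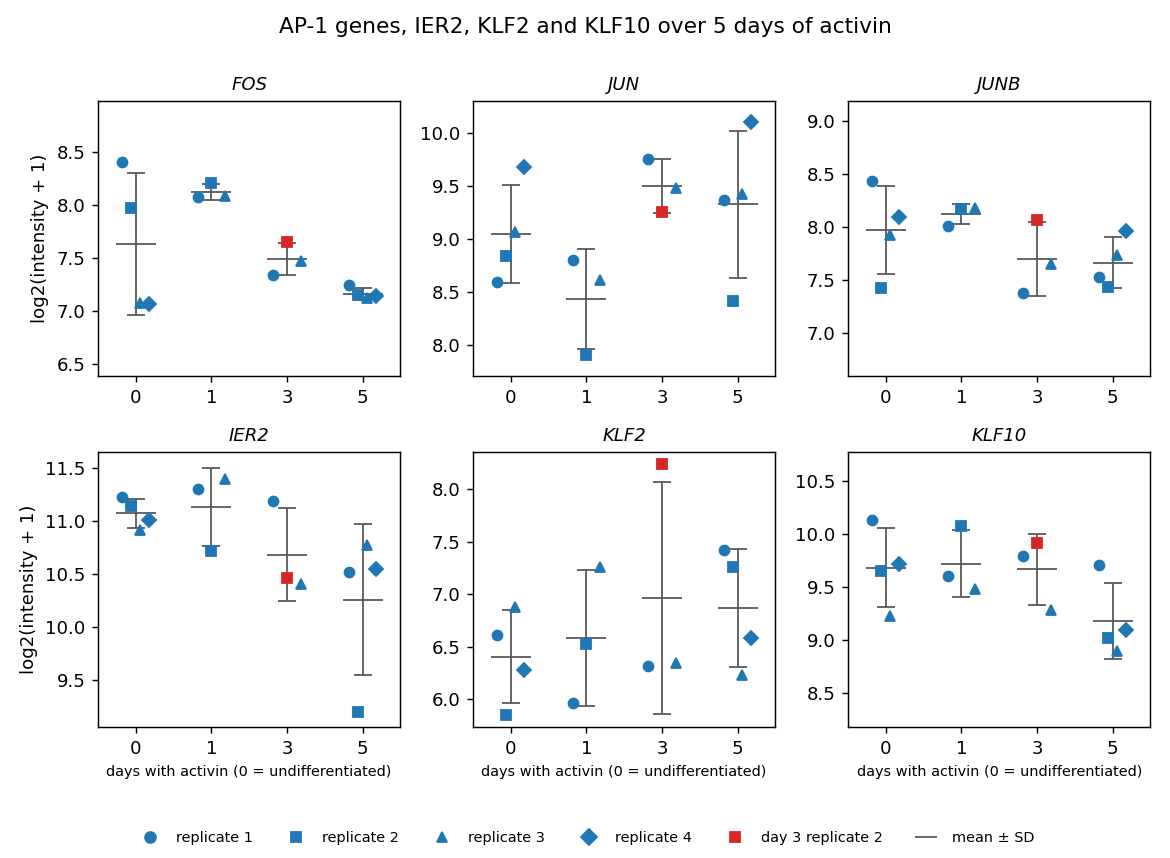
Values of FOS, JUN, JUNB, IER2, KLF2 and KLF10 in each biological sample, as log2(intensity + 1), by days with activin. Points are samples (shape gives the replicate number, red is day 3 replicate 2) and bars are the mean ± SD of each day; FOS is tight on each treated day and split at day 0, and KLF2 is highest in day 3 replicate 2.

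Read together against day 0, 2 of the 10 genes passed the test at day 5 (KLF6 higher, EGR1 lower), where 5.46% of all probe sets did. None of the 10 passed at day 1 (limma; 2 had an unadjusted p under 0.05, and 0.00541% of probe sets passed) or at day 3 (4 with an unadjusted p under 0.05, 0.027% of probe sets). Array weights, in a fit that stopped before convergence, gave 2 at day 1 and 3 at day 3. The share of probe sets passing in that fit is not given here, so these counts cannot be set against it. Without day 3 replicate 2, 0 members passed at day 1 (0.249% of probe sets did), 2 at day 3 (IER3 higher, KLF4 lower, against 3.19% of probe sets) and 3 at day 5 (KLF6 and IER3 higher, EGR1 lower, against 8.73%). An F test over the 3 contrasts called KLF6 with an adjusted p of 0.02, where 3.73% of probe sets were called, and left KLF4 at 0.0513. That F test called 0 members when day 5 replicate 1, 3 or 4 was left out, and likewise for replicate 2 of day 0 and replicate 1 of day 1. Without day 3 replicate 2 it called 4 of the 10, KLF6 (0.00383), IER3 (0.0115), EGR1 (0.031) and KLF4 (0.0435), against 8.2% of probe sets. The comparisons share the day 0 samples and are not independent.

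Samples did not overlap for 2 of the 10 genes at day 1 against day 0, where 11.5% of all probe sets separated, for 1 at day 3 (9.82%) and for 3 at day 5 (14.6%). For day 3 against day 1 JUN and KLF6 lay higher and FOS and KLF4 lower, 4 of 10 against 12.6% of probe sets. For day 5 against day 3 KLF4 and KLF6 lay higher and FOS lower, 3 of 10 against 4.98%. These counts rested in part on day 3 replicate 2, and 1 library fewer also let more of all probe sets separate. With that sample left out, 3 of 10 separated at day 3 against day 0 (IER3 and KLF6 higher, KLF4 lower), against 32.3% of probe sets. For day 3 against day 1 it was 7 of 10, with EGR1 and IER3 added as higher and JUNB as lower, against 42.6%. For day 5 against day 3 it was 5 of 10, with EGR1 and IER3 added as lower, against 22.8%. None of these steps passed the test (limma; 3 members had an unadjusted p under 0.05 for day 3 against day 1 and 2 for day 5 against day 3, where 0.0324% and 0.0973% of probe sets were called). KLF4 passed for day 3 against day 1 without day 3 replicate 2, where 2.73% of probe sets did, and no member passed for day 5 against day 3 (0.157%). The median difference of the 10 members was 0.10 at day 1, -0.08 at day 3 and -0.25 at day 5, against 0.025, -0.01 and -0.02 over all probe sets. The day 3 median was -0.18 without day 3 replicate 2, against -0.03 over all probe sets. At day 5, 4 of the members were above 0 and 6 below.

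**Figure D3:**
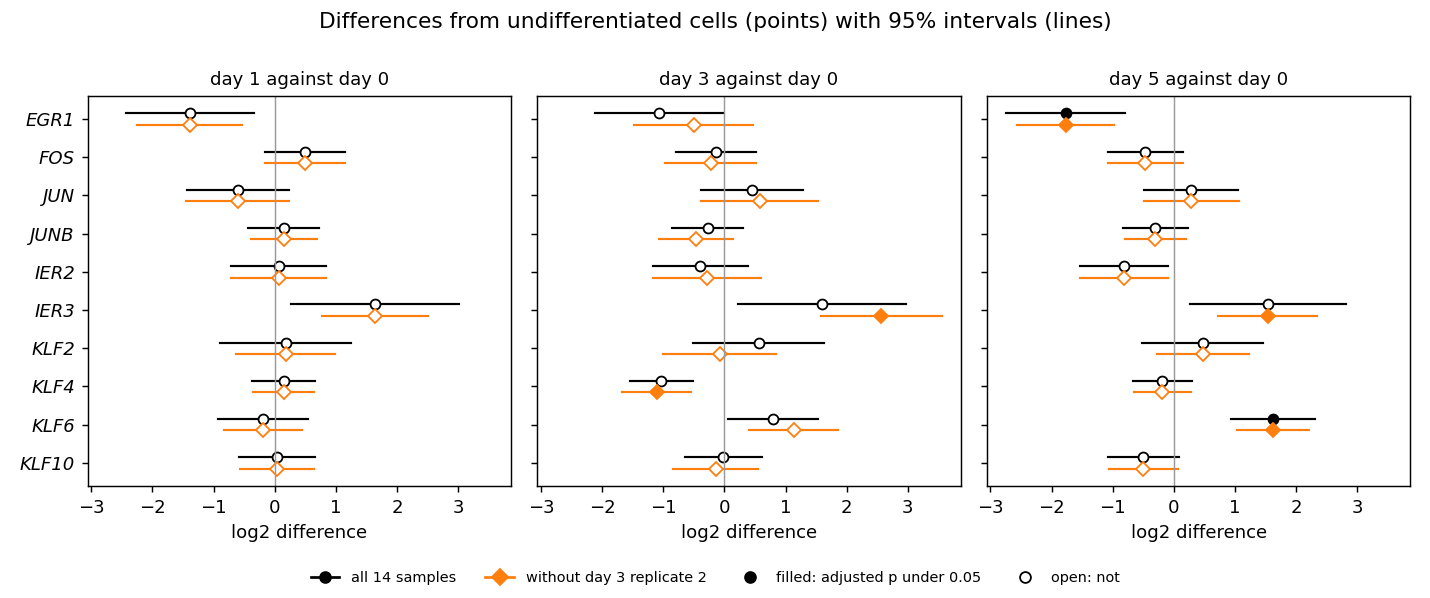
Log2 differences of the 10 genes from undifferentiated cells at days 1, 3 and 5 (horizontal axes), with 95% intervals from limma. Black circles use all 14 samples and orange diamonds leave out day 3 replicate 2, and filled symbols mark adjusted p values under 0.05. EGR1 and KLF6 are filled at day 5 in both fits. Only in the second fit are IER3 (days 3 and 5) and KLF4 (day 3) filled.

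Single samples also moved several members at once. In day 5 replicate 2, 9 of the 10 genes were below their day 5 mean, with a median deviation of -0.30 against 0.00 over all probe sets. It was the lowest sample of the day for EGR1, JUN, JUNB, IER2, IER3, KLF4 and KLF6. Less uneven splits were common. Day 1 replicate 3 and day 5 replicate 1 had 8 members above their day mean. Day 0 replicate 1 and day 5 replicate 4 had 7 above, and day 0 replicates 2 and 3 and day 3 replicate 3 had 7 below. Related gene lists were low in day 5 replicate 2 too. The 35 other immediate early genes averaged 8.49 there, against 9.02 to 9.32 in the other day 5 samples. The 21 other KLF and SP factors averaged 7.23, against 7.84 to 8.06, and 17 upstream regulators 8.82, against 9.05 to 9.37. Neural markers were not lowest in it (5.91, against 5.70 to 5.93). The lower level was thus not particular to the members. The 13 measured heat shock and handling stress genes averaged 10.02 in day 5 replicate 2, against 10.22 to 10.46 in the other day 5 samples, and 9.94 to 10.28 at day 0. In day 3 replicate 2 they averaged 9.47. Whether handling has a part in the members' spread was not tested.

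**Figure D4:**
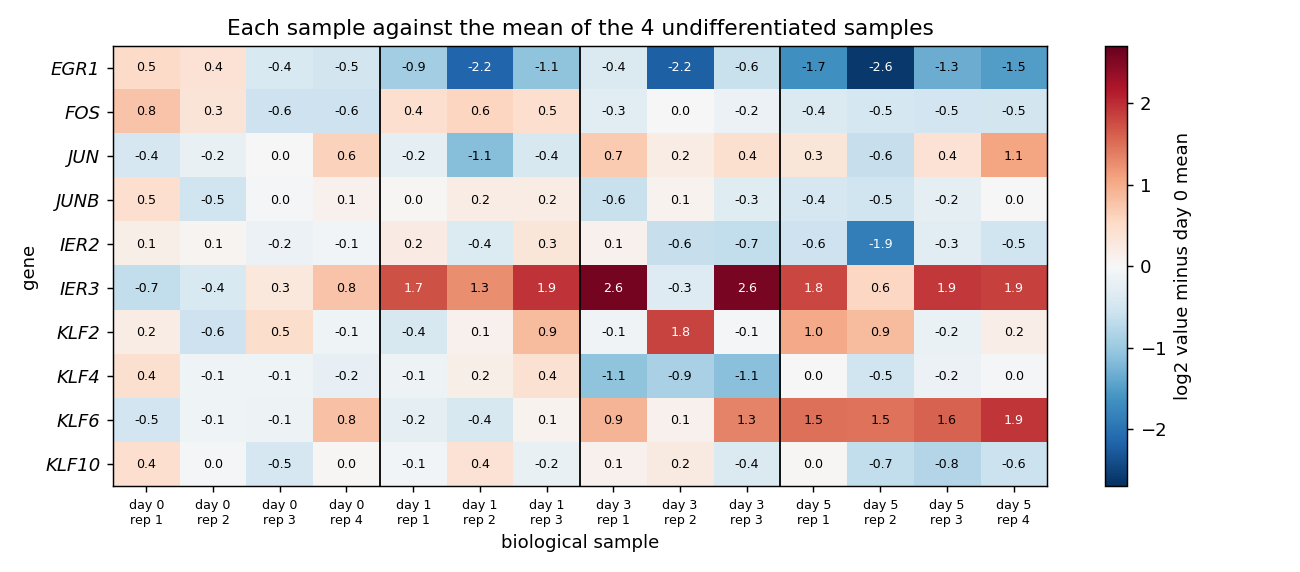
Each of the 10 genes (rows) in each of the 14 biological samples (columns), as the log2 value minus the mean of the 4 undifferentiated samples. Red is above and blue below that mean; the IER3 row is red in the treated samples other than day 3 replicate 2, the KLF6 row is red at day 5 and the EGR1 row is blue on all treated days.

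Other immediate early genes gave a mixed picture too. Of 44 listed, 35 had a probe set of their own, and at day 5 against day 0 2 rose (2.56% of all probe sets did), 0 fell (2.89%), and 18 were above 0. The fit without day 3 replicate 2 gave 3 higher and 2 lower at day 5, where 8.73% of probe sets passed in either direction. NFKBIA, the inhibitor of NF-kappaB, rose by 2.03 ± 0.54 (adjusted p 0.0457), a call lost in 12 of the 14 fits without 1 sample, those other than day 3 replicates 2 and 3 (up to 0.134). The stress factor ATF3 rose by 1.503 ± 0.317 (0.0147) and kept its call in all 14. The list's median difference was 0.03, against -0.02 over all probe sets. None of the 35 passed in the other comparisons with all samples. The largest differences were -1.79 for the growth arrest gene GADD45G at day 1 (adjusted p 0.36), -1.55 for the serum and glucocorticoid kinase SGK1 at day 3 (0.331), and 1.77 for the matricellular gene CCN2 for day 3 against day 1 (0.547; 2.61 and 0.0873 without day 3 replicate 2). NFKBIA differed by 1.30 for day 5 against day 3 (0.801), and by 0.41 without that sample (0.675). SGK1 fell by 2.18 at day 3 without day 3 replicate 2 (adjusted p 0.0193).

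Among 21 measured other KLF and SP factors, 1 rose (2.56% of all probe sets did) and 1 fell (2.89%) at day 5. The fit without day 3 replicate 2 gave 2 higher and 1 lower at day 5, where 8.73% of probe sets passed in either direction. It gave 1 higher at day 3 (3.19% in either direction) and 2 higher for day 3 against day 1 (2.73%), where 0 passed with all samples. The repressor KLF8 rose by 2.50 ± 0.63 (adjusted p 0.0353), and lost the call without any 1 of the day 0 samples, day 1 replicate 1 or day 5 replicates 1, 3 or 4 (up to 0.0927). At day 3 it differed by 1.28 (0.669) and rose by 2.45 without replicate 2 (0.00185). SP4, an activator of neuronal genes, fell by 1.13 ± 0.22 (0.00964) in all fits that left out 1 sample. KLF17 differed by -2.79 at day 1 (0.27) and by 2.20 for day 3 against day 1 (0.37), and SP6 by 2.15 for day 5 against day 3 (0.963). KLF17 was among the dimmest 25% of probe sets. Over the alternative fits its differences ranged from -3.54 to -0.98 at day 1 and from 0.63 to 2.95 for day 3 against day 1. The list's median was -0.09 at day 5.

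Upstream of the members, none of 17 measured regulators passed in any of the 5 comparisons with all samples. NAB2, the co-repressor that EGR1 induces and that binds EGR proteins, differed by -0.95 at day 3 and -1.62 at day 5 (adjusted p 0.817 and 0.24), and by -0.67 for day 5 against day 3 (0.999). Its difference without day 3 replicate 2 was -0.04 at day 3 (0.993) and -1.58 for day 5 against day 3 (0.426). MYOCD, a cofactor of serum response factor in muscle, differed by -2.54 at day 1 (0.376) and by 2.93 for day 3 against day 1 (0.239), and without day 3 replicate 2 rose by 3.83 in the second of these (0.0179). None of the 13 heat shock and handling stress genes passed. The largest differences there were 0.65 for the chaperone DNAJA1 at day 1, -1.40 for the heme-degrading HMOX1 at day 3, and 1.66 for the ER stress factor DDIT3 at day 5 (adjusted p 0.9998, 0.338 and 0.0643). HMOX1 also differed by -0.87 for day 3 against day 1 and by 1.68 for day 5 against day 3 (0.708 and 0.331). With day 3 replicate 2 left out, the HMOX1 differences were -0.79 at day 3, -0.26 for day 3 against day 1 and 1.08 for day 5 against day 3 (0.404, 0.822 and 0.36). DDIT3 passed at day 5 when day 3 replicate 2 was left out (0.0395).

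Profiles closest to KLF6 were sought among 10823 brighter probe sets by the root mean square difference over the 14 samples after centring each gene on its own mean. The 5 closest were the acyltransferase LPGAT1 (0.29 log2 units), the formin DAAM1 (0.29), the nucleotidase ENTPD4 (0.31), RASSF8 (0.32) and the adhesion molecule CADM1 (0.32), against a median of 0.99 for all candidates. Their own day 5 differences from day 0 ran from 1.02 for LPGAT1 to 1.39 for ENTPD4. For EGR1 the closest were MED14, a Mediator subunit (0.38), the cytoskeletal DPYSL3 (0.40), the transporters SLC2A10 (0.43) and SLC7A8 (0.43), and ASMTL (0.44), against a median of 0.98. None of the other 9 members was among the 5 closest to either gene.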

How the data were processed

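Expression was measured on 16 one-colour exon arrays. The authors deposited linear intensity per gene-level probe set (18495 of them), made by a normalization not given in the sources used here; per the submitters' processing notes the genome build was hg18. The arrays share 1 maximum and nearly 1 median, and the lowest value was -0.273. An array has no read depth, so the number of arrays limits the precision.

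A pseudocount of 1 was added before log2, and avearrays averaged the technical arrays, giving 14 biological samples. Whether samples of a day are separate cultures is given only as "biological" replicates, so p-values measure the spread between these samples. A single limma fit (version 3.58.1, R 4.3.3; lmFit, eBayes) held all groups and no other term (10 residual and 3 prior degrees of freedom). P-values were adjusted by Benjamini-Hochberg over all 18495 probe sets at 0.05. Differences are given ± SE and group means ± SD. The code was tested on simulated data. Figures and tables used Python 3.11.15 and matplotlib 3.10.9.

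The members and gene lists were chosen with earlier results of these data known. Named are all 10 members and, per list and comparison, up to 4 genes past the test, or otherwise the gene with the largest difference, from probe sets with 1 symbol (14577 of 18495). 5 profiles closest to KLF6 and to EGR1 were taken among probe sets with a mean of at least 6.

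Same-numbered samples deviated together in all 3 pairs for day 3 and day 1 only (correlations 0.188, 0.509 and 0.365 over probe sets). Replicates 2 and 3 of day 5 deviated with those of day 3 (0.645 and 0.561) and of day 1 (0.513 and 0.427). Replicate 1 of day 5 did not (-0.143 and -0.152). Replicate 2 thus deviated together over days 1, 3 and 5. Samples with unlike numbers also deviated together, at 0.416 for day 3 replicate 1 with day 1 replicate 3 and 0.516 for day 5 replicate 4 with day 3 replicate 1. Pairing by number was therefore not established, and a link between replicate 2 samples was not tested. The main fit held no replicate term, and a replicate block, fitted as an alternative, changed no member's call. Alternatives covered technical arrays, a replicate block, the groups fitted, normalization, dim probe sets, the variance prior, array weights, a pseudocount of 16 and each sample left out.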

Additional observations from a re-analysis of the deposited data

Results flagged for a closer look

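3 values stood far from the other samples of their day, by the gap to the nearest sample as a share of the day's range (Dixon's 95% critical value). Of 20 sets of 4 samples examined, 3 met this, and chance flags about 1 in 20. IER2 in day 5 replicate 2 was 9.20, against 10.52 to 10.78 in the other day 5 samples. IER3 in the same sample was 11.16, against 12.40 to 12.52. KLF4 in day 0 replicate 1 was 7.40, against 6.75 to 6.86 in the other undifferentiated samples. Day 5 replicate 2 was also the day 5 sample with the lowest median correlation with its day (0.858). Its part in these values was not tested further.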

How the results depend on the processing

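The rise of KLF6 at day 5 kept its direction and stayed past the test under all 26 alternatives (1.45 to 1.88, adjusted p 0.000288 to 0.0386). EGR1 at day 5 kept its direction under all 26 (-1.94 to -1.50) and lost its call under 9, each a fit without 1 sample. The count of members past the test at day 5 was 1 to 3 without 1 sample, 0 to 2 at day 3, 0 to 1 for day 3 against day 1, 0 in each case at day 1 and for day 5 against day 3, and 0 to 4 by the F test. Array weights, whose estimation stopped before convergence, gave 2 at day 1, 3 at day 3, 4 at day 5, 6 for day 3 against day 1, 1 for day 5 against day 3 and 6 by the F test. Without replicate 2 of days 3 and 5 together the counts were 1 at day 1, 2 at day 3, 2 for day 3 against day 1 and 4 by the F test. Shares of all probe sets passing are given here only for the main fit and the fit without day 3 replicate 2. Counts from the other fits cannot be set against such a share. The F test gave 2 with all 16 arrays and a random block, and 2 without the dimmest probe sets. With the replicate block the counts were 0, 0, 2, 0, 0 and, by the F test, 1, as without it, though pairing by number was not established. The cause of these moves was not tested. The table gives no background signal, so detection was not judged; by mean level KLF2 and KLF4 stood at the lower end of the members (percentiles 35.5 and 35.8 of all probe sets).

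Of the 50 member differences 33 kept their sign throughout, and the 17 that did not were 0.56 or less in size and not past the test with all samples. Those that turned when 1 sample was left out ranged as follows at day 1 against day 0: JUNB -0.0323 to 0.30, IER2 -0.0678 to 0.27, KLF2 -0.16 to 0.49, KLF6 -0.36 to 0.0725 and KLF10 -0.14 to 0.18. At day 3 against day 0 they were FOS -0.33 to 0.12, KLF2 -0.0758 to 0.89 and KLF10 -0.17 to 0.17. For day 3 against day 1 they were EGR1 -0.0637 to 0.89, IER3 -0.53 to 0.93, KLF2 -0.26 to 0.72 and KLF10 -0.18 to 0.14, and for day 5 against day 3 JUN -0.43 to 0.13, JUNB -0.19 to 0.15, IER3 -1.04 to 0.42, and KLF2 -0.42 to 0.54. Outside the members, NAB2 for day 5 against day 3 ranged from -1.58 to 0.0137. Array weights turned KLF2 (-0.32), KLF4 (-0.14) and KLF10 (-0.14) at day 1, KLF2 (-0.0114) at day 3, IER3 (0.78, adjusted p 0.0282), KLF10 (0.0486) and HMOX1 (0.0339) for day 3 against day 1, and JUNB (0.33) and KLF2 (0.14) for day 5 against day 3. Technical array 2 alone gave a KLF10 difference of 0.0082 at day 3. Without replicate 2 of days 3 and 5 KLF2 was -0.0758 at day 3, IER3 was 0.93 and KLF2 -0.26 for day 3 against day 1, and JUN was 0.0114, JUNB 0.23 and KLF2 0.41 for day 5 against day 3.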
